A study of Mus musculus with 8 samples.

Results

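The 10 genes described here mark the pharyngeal and gut endoderm of the mouse embryo: Sox17, Foxa1, Hhex, Nepn, Pax1, Pax9, Tbx1, Nkx2-3, Nkx2-1 and Foxe1. They were taken by name, with earlier results of these data known, and each matched 1 of the 55421 Ensembl gene identifiers in the deposited expression table. RNA from embryos of 9 to 11 somites (E9.25) had been sequenced in 8 libraries that form 4 groups of 2. The groups were posterior pieces of Gcnf-/- embryos, posterior pieces of wt embryos, anterior pieces of Gcnf-/- embryos and anterior pieces of wt embryos. Gcnf, now named Nr6a1, encodes an orphan nuclear receptor. Anterior pieces ended with the first pharyngeal arch, and posterior pieces began with the second arch, so each piece mixes endoderm with neural tissue, mesoderm, neural crest and surface ectoderm. The structure of the mutant allele, the strain and the way the wt embryos were bred are not stated in the labels. Mutant libraries carry the numbers 159 and 163, and wild-type libraries 153 and 156. Nothing in the labels states that libraries of a group derive from different embryos. The 2 mutant libraries of a region differed in sex-linked transcripts, as described below, and so hold different embryos. For the wild-type libraries this is not known, and their part of the spread behind the p-values may be technical.

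The endoderm is the inner sheet of the early embryo and folds into the gut tube. Its front end, the pharynx, bulges into pouches between the arches and gives rise to the thyroid, thymus and parathyroid glands, while more posterior endoderm forms lung, liver, pancreas and intestine. Transcription factors divide the sheet: Sox17 and the Foxa forkhead proteins act in endoderm from its formation, Pax1, Pax9 and Tbx1 act in the pharyngeal pouches, and Nkx2-1, Foxe1 and Hhex act together in the thyroid bud.

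Levels are given in TPM, transcripts per 1000000 transcripts, which are corrected for gene length and scaled to the same total in each library. Between 27064114 and 52957992 reads fell in genes per library, and a gene of 1 kb with 3 reads had between 0.2 and 0.403 TPM. Such floors, and the intervals on read counts below, cover counting error only. Regional markers followed the labels. Six3, a forebrain gene, had 22.5 to 33.5 TPM in the 4 anterior libraries and at most 0.17 TPM in the posterior ones, while Hoxa3 had 13 to 17.3 TPM in posterior libraries and at most 0.16 TPM in anterior ones. Nr6a1 had 158 and 116 TPM in mutant posterior libraries, against 157 and 165 TPM in wild-type posterior libraries, and 240 and 202 TPM in mutant anterior libraries, against 194 and 205 TPM in wild-type anterior libraries. A whole-gene level does not separate a mutant from a normal transcript and does not check the genotype labels. Mutant libraries numbered 159 carried the X-linked Xist at 25.3 TPM (anterior) and 30.9 TPM (posterior), while the other 6 libraries carried the Y-linked Ddx3y at 26.2 to 39.4 TPM, so sex was not balanced between the genotypes.

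In the posterior pieces Sox17 was about 2-fold higher in the mutant, and Tbx1 and Nkx2-3 were lower. In the anterior pieces Nkx2-1 was 6.28-fold lower and Foxa1 was 1.85-fold lower in the mutant. Differences were tested with limma on log2(TPM + 1) over the 16699 genes with at least 1 TPM in at least 2 libraries, and called at a Benjamini-Hochberg adjusted p under 0.05. All 10 genes entered the test. Of these, 3 of 10 were called in the posterior pieces, 1 higher and 2 lower, against 11.5% of all genes tested (8.56% higher and 2.93% lower). In the anterior pieces 2 of 10 were called, both lower, against 23.6% of all genes tested (13.3% higher and 10.2% lower). The anterior share of the members lies near that of the whole table. The balance between higher and lower calls over all genes moved with the scaling of the libraries: 74.5% of posterior calls were higher as deposited, 54.3% after median-of-ratios scaling and 53.9% after quantile normalization. For the anterior calls these shares were 56.6%, 50.5% and 47.3%. The direction of each of the 5 member calls was the same under both scalings.

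The libraries do not mark strand, and 5 members overlap an antisense gene between gene start and gene end, introns included. Overlap of exons was not computed. Those antisense genes were listed at no more than 0.023 TPM for Sox17, 0.621 TPM for Nkx2-1, 0.962 TPM for Pax1 and 1.28 TPM for Foxe1, and for Pax9 at 0.247 to 3.63 TPM (Gm15524) and 0.81 to 5.51 TPM (Slc25a21). For Pax9, Foxe1 and Nkx2-1 the highest antisense level exceeded the lowest level of the member itself, so low levels of these members are uncertain wherever exons overlap.

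Between regions, more of the members were called. In the mutant 6 of 10 were called, 3 higher and 3 lower in posterior pieces, against 16.1% of all genes tested (8.01% higher and 8.1% lower). In the wild type 4 of 10 were called, 3 higher and 1 lower in posterior pieces, against 14.5% of all genes tested (7.86% higher and 6.65% lower). Nepn and Foxa1 were higher in posterior pieces of both genotypes. Nepn passed the filter only through posterior libraries and Nkx2-1 only through anterior ones. Since the members were chosen with earlier results known, the counts beside all genes are descriptions. The genotype effects of the regions did not differ past the threshold for any member: 0 of 10 were called in the test of the difference itself, against 1.01% of all genes tested (0.413% higher and 0.599% lower). With limma voom on read counts 0 members were called as well. Genes that passed in one region only are therefore not shown to differ between regions. In bulk tissue, fewer cells of a type and less RNA per cell cannot be told apart, and this holds for every difference below.

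**Figure D1:**
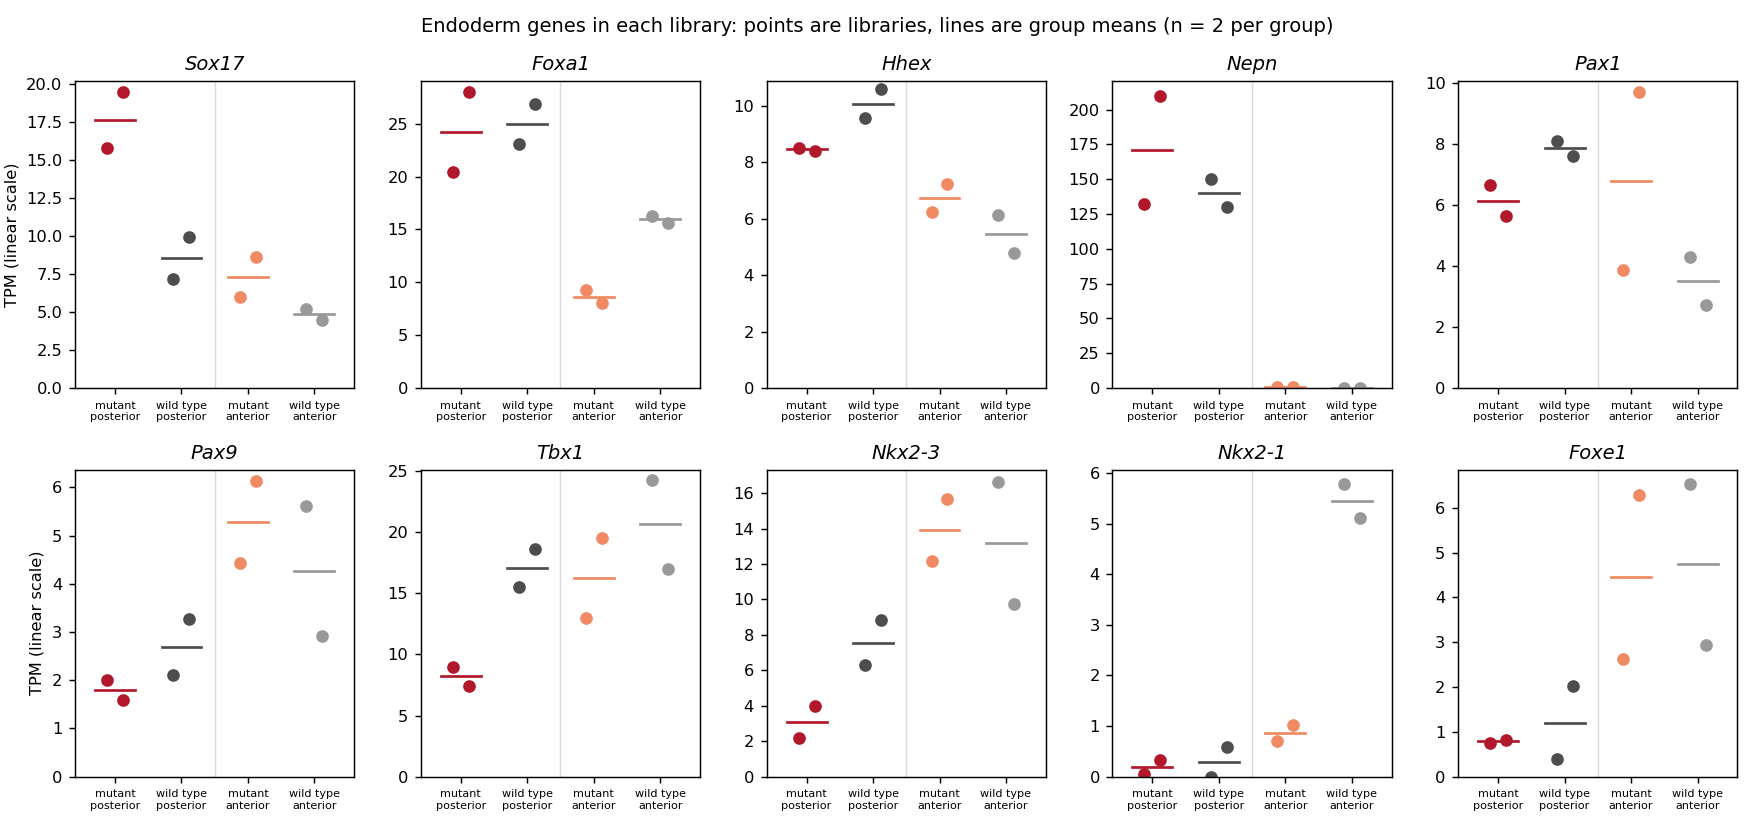
TPM (vertical axis, linear, starting at 0) of each of the 10 genes in each of the 8 libraries, in the order mutant posterior, wild-type posterior, mutant anterior and wild-type anterior, where each point is a library and each line a group mean (n = 2). Nepn stands at 130 to 210 TPM in posterior libraries and near 0 in anterior ones, Nkx2-1 is high in the wild-type anterior libraries alone, and Sox17 is highest in the mutant posterior libraries.

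Sox17 encodes an HMG-box transcription factor that is needed to form definitive endoderm in the mouse and is also made in arterial endothelium. The gene (ENSMUSG00000025902; mm10 chromosome 1, 4490931 to 4497354, minus strand) had 15.8 and 19.5 TPM in mutant posterior libraries, against 7.15 and 9.93 TPM in wild-type posterior libraries. Both mutant libraries lay above both wild-type libraries. The mean was 17.7 ± 2.6 TPM in the mutant and 8.54 ± 2.0 TPM in the wild type (SD, n = 2 each), a 2.07-fold difference of 0.98 ± 0.20 on the log2(TPM + 1) scale (standard error; limma adjusted p = 0.019). In the anterior pieces it had 6.01 and 8.59 TPM in the mutant, against 5.21 and 4.50 TPM in the wild type. The groups did not overlap there either, and the difference of 0.49 ± 0.20 missed the threshold (adjusted p = 0.12). Posterior exceeded anterior pieces by 1.18 ± 0.20 in the mutant (adjusted p = 0.0044) and by 0.69 ± 0.20 in the wild type (adjusted p = 0.053).

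Endothelial genes moved with Sox17 in part. The summed level of 10 endothelial markers was 435 to 454 TPM in mutant posterior libraries and 330 to 337 TPM in wild-type posterior libraries, with no marker at 0. In the anterior pieces the sums were 256 to 347 TPM in the mutant and 233 to 288 TPM in the wild type. Of the 10 markers, 1 was called between genotypes in each region, Pecam1, which rose by 1.11 ± 0.14 in posterior pieces (adjusted p = 0.002) and by 0.80 ± 0.14 in anterior pieces (adjusted p = 0.0045). The part of endothelium in the Sox17 difference was not tested. The posterior Sox17 call was lost when mutant posterior library 163 (adjusted p = 0.071) or wild-type posterior library 153 (adjusted p = 0.15) was left out, without both libraries numbered 153 (adjusted p = 0.23) and without the filter on low values (adjusted p = 0.079).

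Foxa1 encodes a forkhead protein that opens chromatin in foregut endoderm and is also present in the notochord and the floor plate of the neural tube. The gene (ENSMUSG00000035451; mm10 chromosome 12, 57540628 to 57546916, minus strand) had 9.22 and 8.05 TPM in mutant anterior libraries, against 16.2 and 15.7 TPM in wild-type anterior libraries. The groups were well apart, at 8.64 ± 0.83 TPM in the mutant and 15.9 ± 0.42 TPM in the wild type (SD, n = 2 each). The difference was -0.82 ± 0.16 (adjusted p = 0.0075), and it was lost without mutant anterior library 163 (adjusted p = 0.051) and without both libraries numbered 153 (adjusted p = 0.10). In posterior pieces the mutant had 20.4 and 28.0 TPM and the wild type 23.1 and 26.9 TPM, so the groups overlapped (-0.05 ± 0.16, 95% interval -0.42 to 0.31).

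The posterior level of Foxa1 exceeded the anterior level 2.80-fold in the mutant (1.37 ± 0.16, adjusted p = 0.00052) and 1.56-fold in the wild type (0.61 ± 0.16, adjusted p = 0.034). The wild-type region call was lost under 8 of the 20 alternative settings and the mutant one under 0. Foxa2, the paralogue that Foxa1 shares many endodermal sites with, showed the same order in the anterior pieces, with 13.3 and 13.8 TPM in the mutant, against 23.4 and 22.4 TPM in the wild type (-0.72 ± 0.13, adjusted p = 0.0066). Foxa2 also marks floor plate and notochord. The summed level of 7 genes of those tissues was 62.5 to 64.3 TPM in mutant anterior libraries and 81.1 to 83 TPM in wild-type anterior libraries, with no gene at 0, and 2 of 7 were called there, Foxa2 and Shh, both lower. The Foxa2 call was lost under 2 and the Shh call under 8 of 20 alternatives. The part of floor plate and notochord in the Foxa1 difference was not tested.

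Hhex encodes a homeobox factor of the anterior endoderm, where it is needed for the liver and thyroid buds. The gene (ENSMUSG00000024986; mm10 chromosome 19, 37434810 to 37440731, plus strand) had 8.51 and 8.40 TPM in mutant posterior libraries, against 9.57 and 10.6 TPM in wild-type posterior libraries. Anterior libraries had 6.25 and 7.25 TPM in the mutant and 6.13 and 4.77 TPM in the wild type. The genotypes did not overlap in either region, lower in the mutant posterior and higher in the mutant anterior pieces, and neither difference passed (-0.23 ± 0.15 with adjusted p = 0.36 and 0.27 ± 0.15 with adjusted p = 0.22). In the wild type posterior pieces exceeded anterior ones 1.85-fold (0.79 ± 0.15, adjusted p = 0.0077). In the mutant the same comparison gave 0.29 ± 0.15 (adjusted p = 0.25). The wild-type call was lost without wild-type anterior library 156 (adjusted p = 0.077), wild-type posterior library 156 (adjusted p = 0.073) or both libraries numbered 153 (adjusted p = 0.067).

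Nepn encodes nephrocan, a secreted leucine-rich repeat protein known in the mouse from mid- and hindgut endoderm. It had the widest regional contrast of the 10 genes. The gene (ENSMUSG00000038624; mm10 chromosome 10, 52388972 to 52404625, plus strand) had 132 and 210 TPM in mutant posterior libraries, against 0.553 and 0.505 TPM in mutant anterior libraries. In the wild type it had 150 and 130 TPM in posterior libraries, against 0.267 and 0.104 TPM in anterior libraries. The anterior levels rest on 11 and 9 reads in the mutant and on 5 and 2 reads in the wild type. Normalized to the totals of the libraries, posterior exceeded anterior reads 304-fold in the mutant (exact 95% counting interval 196 to 497) and 742-fold in the wild type (360 to 1847). On the log2 scale the differences were 6.78 ± 0.20 (adjusted p = 2.6e-07) and 6.90 ± 0.20 (adjusted p = 2.2e-07), and neither was lost under any of the 20 alternatives. Nepn entered the test only through the posterior libraries.

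Between genotypes Nepn overlapped in the posterior pieces (0.25 ± 0.20, 95% interval -0.20 to 0.71). In the anterior pieces both mutant libraries lay above both wild-type libraries, with a read ratio of 2.87 (exact 95% counting interval 1.17 to 8.04), at levels near that of a few reads. The difference there was 0.37 ± 0.20 (adjusted p = 0.22), and it passed only with a pseudocount of 0.1 TPM, at 1.2 (adjusted p = 0.021).

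The promoter windows of Nepn and Foxa1, the members that were higher in posterior pieces of both genotypes, are shown because they were the only 2 of 9 member windows with the forkhead motif TGTTTAC. Each run gives the 250 bases before the RefSeq start site of GRCm38.p6, 5′ to 3′ on the strand of the gene, with matches of the searched motifs in capitals. The Nepn window lies at chr10:52391358-52391607 on the plus strand and the Foxa1 window at chr12:57546112-57546361 on the minus strand.
Nepn: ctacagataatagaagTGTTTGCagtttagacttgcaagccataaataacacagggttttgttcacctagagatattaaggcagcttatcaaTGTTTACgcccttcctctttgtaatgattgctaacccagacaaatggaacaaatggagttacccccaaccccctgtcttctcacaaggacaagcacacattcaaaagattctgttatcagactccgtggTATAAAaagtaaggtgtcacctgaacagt
Foxa1: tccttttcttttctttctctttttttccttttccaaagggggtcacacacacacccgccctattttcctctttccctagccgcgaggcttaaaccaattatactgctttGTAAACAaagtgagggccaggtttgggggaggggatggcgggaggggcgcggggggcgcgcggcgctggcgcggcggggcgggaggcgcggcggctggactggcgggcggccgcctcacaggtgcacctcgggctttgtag

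In the Nepn window the capitals mark another forkhead form, TGTTTGC, starting at position -234, TGTTTAC at -158 and a TATAAA box at -29, counted from the start site. The Foxa1 window holds TGTTTAC on its opposite strand, so the run shows GTAAACA, starting at -141. Over all 32851 RefSeq promoter windows of 300 bases, TGTTTAC was present in 3.65%, TGTTTGC in 5.07% and TATAAA in 13.6%, both strands counted. TGTTTGC was also in the window of Pax9, starting at -52, and Pax9 had a lower mean level in posterior pieces of both genotypes. The Nepn window was poor in G and C, at 42.3%, against 62.3% in the Foxa1 window and a median of 52.7% over all windows. The RefSeq start used for both genes lies inside the longer GENCODE gene. A match of letters is a description of the window and not a binding site. No window was given for Sox17 or Foxe1, and Tbx1 had 2.

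Pax1 encodes a paired-box factor of the pharyngeal pouches, and also of the sclerotome, the part of the somite that forms vertebrae. The gene (ENSMUSG00000037034; mm10 chromosome 2, 147361925 to 147393295, plus strand) had 6.65 and 5.63 TPM in mutant posterior libraries, against 8.11 and 7.63 TPM in wild-type posterior libraries. In anterior pieces it had 3.87 and 9.73 TPM in the mutant, against 4.29 and 2.72 TPM in the wild type. Mutant anterior library 163 was far above library 159, which lay among the wild-type libraries. Neither genotype difference passed (-0.32 ± 0.33 with adjusted p = 0.58 in posterior and 0.70 ± 0.33 with adjusted p = 0.15 in anterior pieces). Without mutant anterior library 159 the anterior difference was 1.27 (adjusted p = 0.012). Posterior minus anterior was -0.02 ± 0.33 in the mutant (adjusted p = 0.98) and 1.00 ± 0.33 in the wild type (adjusted p = 0.078).

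Pax9, the paralogue of Pax1 in the same pouches and needed in the mouse for thymus and parathyroid glands, had 2.01 and 1.58 TPM in mutant posterior libraries, against 2.10 and 3.28 TPM in wild-type posterior libraries. The gene (ENSMUSG00000001497) lies on mm10 chromosome 12, 56691767 to 56712822, plus strand. In anterior pieces it had 4.44 and 6.14 TPM in the mutant and 5.61 and 2.91 TPM in the wild type. The anterior groups overlapped, and mutant posterior library 159 lay just below wild-type posterior library 153. No genotype difference passed (-0.38 ± 0.28 with adjusted p = 0.41 and 0.29 ± 0.28 with adjusted p = 0.48). In the mutant, posterior pieces were 2.94-fold below anterior ones (-1.16 ± 0.28, adjusted p = 0.022), a call lost under 5 of 20 alternatives. In the wild type that difference was -0.48 ± 0.28 (adjusted p = 0.28).

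In mean level Pax1 was higher in posterior than in anterior pieces of the wild type, while Pax9 was lower in posterior pieces of both genotypes. Sclerotome markers were high in the posterior pieces. The summed level of 6 of them was 259 to 287 TPM in mutant posterior libraries and 280 to 348 TPM in wild-type posterior libraries, with 19.7 to 30.9 TPM in mutant anterior and 31 to 37.4 TPM in wild-type anterior libraries, and none was at 0. Of these 6, 5 were higher in posterior pieces of each genotype. The part of sclerotome in the Pax1 and Pax9 levels was not tested.

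Tbx1 encodes the T-box factor of pharyngeal endoderm and arch core mesoderm whose human counterpart is lost in DiGeorge syndrome. The gene (ENSMUSG00000009097; mm10 chromosome 16, 18580979 to 18590671, minus strand) had 9.01 and 7.42 TPM in mutant posterior libraries, against 15.6 and 18.7 TPM in wild-type posterior libraries. The groups did not overlap, with means of 8.21 ± 1.1 TPM in the mutant and 17.1 ± 2.2 TPM in the wild type (SD, n = 2 each), a 2.08-fold lower mutant level. The difference was -0.98 ± 0.22 (adjusted p = 0.026). The anterior libraries had 13.0 and 19.5 TPM in the mutant, against 24.3 and 17 TPM in the wild type. Those groups overlapped, and the difference of -0.33 ± 0.22 did not pass (adjusted p = 0.31). Posterior pieces were below anterior pieces in the mutant (-0.88 ± 0.22, adjusted p = 0.026), and by -0.24 ± 0.22 in the wild type (adjusted p = 0.50).

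The posterior genotype call of Tbx1 was lost under 6 of 20 alternatives, among them leaving out mutant posterior library 163 (adjusted p = 0.084), wild-type posterior library 153 (adjusted p = 0.11) or wild-type posterior library 156 (adjusted p = 0.14). The mutant region call was lost under 8. Tbx1 is also made in the second heart field and arch core mesoderm. A list of 7 genes of those tissues summed to 89.8 to 108 TPM in mutant posterior libraries and to 61 to 89.3 TPM in wild-type posterior libraries, with none at 0, and 3 of 7 rose while 1 fell there. The part of these tissues in the Tbx1 difference was not tested. Among the 7 genes Msc, a bHLH factor of arch muscle precursors, rose by 2.25 ± 0.23 (adjusted p = 0.00099). Nkx2-5, also of the 7, had 32.8 and 5.13 TPM in mutant posterior libraries and 8.05 and 30.6 TPM in wild-type posterior libraries. In the wild type Nkx2-5 was higher in library 153 than in 156 in anterior pieces (19.6 and 7.71 TPM) and lower in posterior pieces. Tbx1 and every other member except Pax1 and Nepn had the same order. The cause was not tested.

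Nkx2-3 encodes a homeobox factor of pharyngeal endoderm and, later, of gut mesenchyme. The gene (ENSMUSG00000044220; mm10 chromosome 19, 43612325 to 43615892, plus strand) had 2.21 and 4.01 TPM in mutant posterior libraries, against 6.30 and 8.82 TPM in wild-type posterior libraries. The groups did not overlap, at 3.11 ± 1.3 TPM in the mutant and 7.56 ± 1.8 TPM in the wild type (SD, n = 2 each), a 2.43-fold lower mutant level (-1.08 ± 0.29, adjusted p = 0.046). This call sat close to the threshold and was lost under 9 of 20 alternatives, with the highest adjusted p, 0.22, without wild-type posterior library 156. In anterior pieces the mutant had 12.2 and 15.7 TPM and the wild type 16.6 and 9.73 TPM, with overlap (0.11 ± 0.29, adjusted p = 0.82). Posterior pieces were 4.48-fold below anterior ones in the mutant (-1.89 ± 0.29, adjusted p = 0.0025), under every alternative run. In the wild type that difference was -0.70 ± 0.29 (adjusted p = 0.15).

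Nkx2-1 encodes the homeobox factor that marks the thyroid and lung buds in the endoderm and the hypothalamus and ventral forebrain in the neural tube. The gene (ENSMUSG00000001496; mm10 chromosome 12, 56531958 to 56536908, minus strand) had 0.708 and 1.02 TPM in mutant anterior libraries, against 5.78 and 5.10 TPM in wild-type anterior libraries. These levels rest on 20 and 26 reads in the mutant, against 154 and 139 reads in the wild type, a read ratio of 0.158 (exact 95% counting interval 0.113 to 0.216). The groups were far apart, and the difference was -1.79 ± 0.26 (adjusted p = 0.0021). On read counts, limma voom gave -2.59 (adjusted p = 0.012). The call was lost with a pseudocount of 0.1 TPM (adjusted p = 0.068) and under no other alternative of the 20. In posterior pieces Nkx2-1 had 0.0468 and 0.322 TPM in the mutant, against 0 and 0.576 TPM in the wild type, from 10 mutant and 23 wild-type reads, all of the 23 in library 156, so the groups overlapped. Wild-type posterior pieces lay below wild-type anterior ones (-2.36 ± 0.26, adjusted p = 0.00045), at -2.69 to -2.03 with 1 library left out, and the call was lost under 0 of 20 alternatives. No fold is given, since 1 wild-type posterior library had 0 reads. In the mutant the difference was -0.66 ± 0.26 (adjusted p = 0.13). Nkx2-1 entered the test only through anterior libraries, 1 mutant and 2 wild-type ones with at least 1 TPM.

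The difference between the genotype effects of the regions was -1.70 ± 0.36 for Nkx2-1 (anterior minus posterior, adjusted p = 0.078), the smallest p of the 10 members in that test. Markers of the ventral forebrain and hypothalamus stood beside it at nearly equal levels. Their 7 genes summed to 143 to 146 TPM in mutant anterior libraries and to 154 to 171 TPM in wild-type anterior libraries, while Nkx2-1 was 6.28-fold lower. Of the 7, 1 rose and 2 fell in the mutant anterior pieces. In posterior libraries the sum was 10.3 to 12.8 TPM, and Rax, Fezf2 and Six6 were at 0 in at least 1 library. The parts of endoderm and forebrain in the Nkx2-1 level were not tested.

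The promoter of Nkx2-1, the member with the largest genotype difference, is shown because it was the only 1 of the 9 member windows with AGGTCA, the core sequence that nuclear receptors bind. The run gives 248 bases before and 2 bases after the RefSeq start site of GRCm38.p6, at chr12:56536907-56537156 on the minus strand, 5′ to 3′ along the gene.
Nkx2-1: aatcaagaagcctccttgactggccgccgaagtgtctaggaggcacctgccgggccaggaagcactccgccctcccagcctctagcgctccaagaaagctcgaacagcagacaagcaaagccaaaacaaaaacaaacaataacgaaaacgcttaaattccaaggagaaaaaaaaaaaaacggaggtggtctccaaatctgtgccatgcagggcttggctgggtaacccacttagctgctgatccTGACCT

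The capitals mark the motif on the opposite strand, starting at position -4 and reaching across the start site. AGGTCA was present in 16.3% of all windows, and the longer form TCAAGGTCA, in 0.423% of all windows, was in none of the 9. CAAGTG, a core of Nkx2 class sites, was in 13.6% of all windows and in that of Pax9 alone among the members, and the T-box motif AGGTGTGA, in 1.28% of all windows, was in none. The 7 motifs were searched on both strands, with AGGTCA contained in TCAAGGTCA.

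Foxe1 encodes a forkhead factor of the thyroid bud and the oral ectoderm. The gene (ENSMUSG00000070990; mm10 chromosome 4, 46343609 to 46346412, plus strand) had 0.759 and 0.816 TPM in mutant posterior libraries, against 0.383 and 2.03 TPM in wild-type posterior libraries. Anterior libraries had 2.62 and 6.27 TPM in the mutant and 6.54 and 2.94 TPM in the wild type. Libraries of the same group differed more than 2-fold in 3 of the 4 groups, and the genotypes overlapped in both regions (-0.20 ± 0.45 in posterior and -0.09 ± 0.45 in anterior pieces). The 95% intervals, -1.23 to 0.84 and -1.12 to 0.94, leave room for a fall of the size found for Tbx1 in posterior pieces (-0.98). Their upper ends lie below the posterior rise of Sox17 (0.98) on this scale, but the pseudocount shrinks differences of a gene as low as Foxe1. A rise of the same fold as that of Sox17 is therefore not excluded. Posterior pieces were lower by point estimate in both genotypes, at -1.52 ± 0.45 in the mutant (adjusted p = 0.054) and -1.41 ± 0.45 in the wild type (adjusted p = 0.073). Of the 3 thyroid bud factors among the members, Nkx2-1 was the only one called between genotypes in the anterior pieces, and the differences of Hhex and Foxe1 there were 0.27 ± 0.15 and -0.09 ± 0.45.

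**Figure D2:**
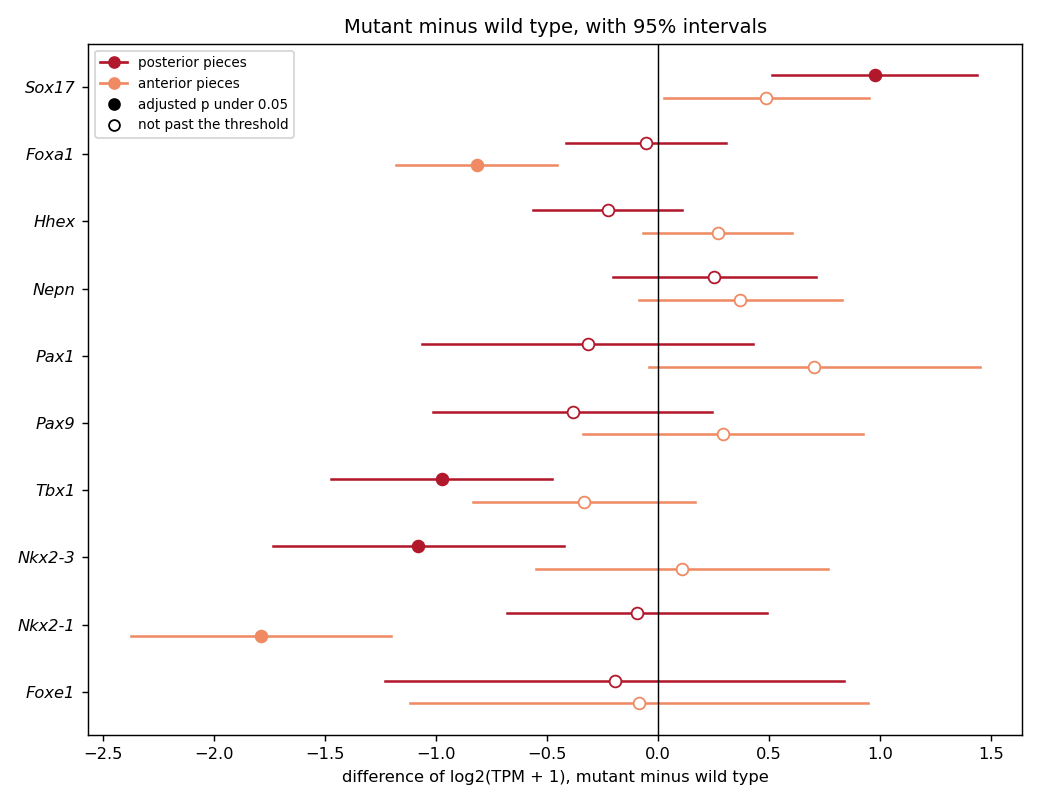
Difference of log2(TPM + 1), mutant minus wild type, for the 10 genes (horizontal axis) in posterior pieces (upper, dark red) and anterior pieces (lower, orange), with 95% intervals from limma; filled points passed an adjusted p of 0.05. Sox17 (0.98), Tbx1 (-0.98) and Nkx2-3 (-1.08) are filled in posterior pieces, and Foxa1 (-0.82) and Nkx2-1 (-1.79) in anterior pieces.

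The members were also ordered by their mean level in each group. In mutant posterior pieces the order from the top was Nepn, Foxa1, Sox17, Hhex, Tbx1, Pax1, Nkx2-3, Pax9, Foxe1 and Nkx2-1, and only Hhex and Tbx1 overlapped as neighbours. In wild-type posterior pieces Nepn and Foxa1 also led, Tbx1 came next, and Hhex, Sox17, Pax1 and Nkx2-3 followed with overlapping levels between 6.30 and 10.6 TPM. In mutant anterior pieces Tbx1 and Nkx2-3 led with overlapping levels, and Nkx2-1 and Nepn (0.529 ± 0.035 TPM) came last. In wild-type anterior pieces Tbx1 led, Foxa1 and Nkx2-3 overlapped behind it, and Hhex, Nkx2-1, Sox17, Foxe1, Pax9 and Pax1 formed a run of neighbours with overlapping levels at means of 3.51 to 5.45 TPM. Nkx2-1 was the fifth gene in that order, at 5.44 ± 0.48 TPM, and the ninth in the mutant anterior order, at 0.867 ± 0.22 TPM.

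**Figure D3:**
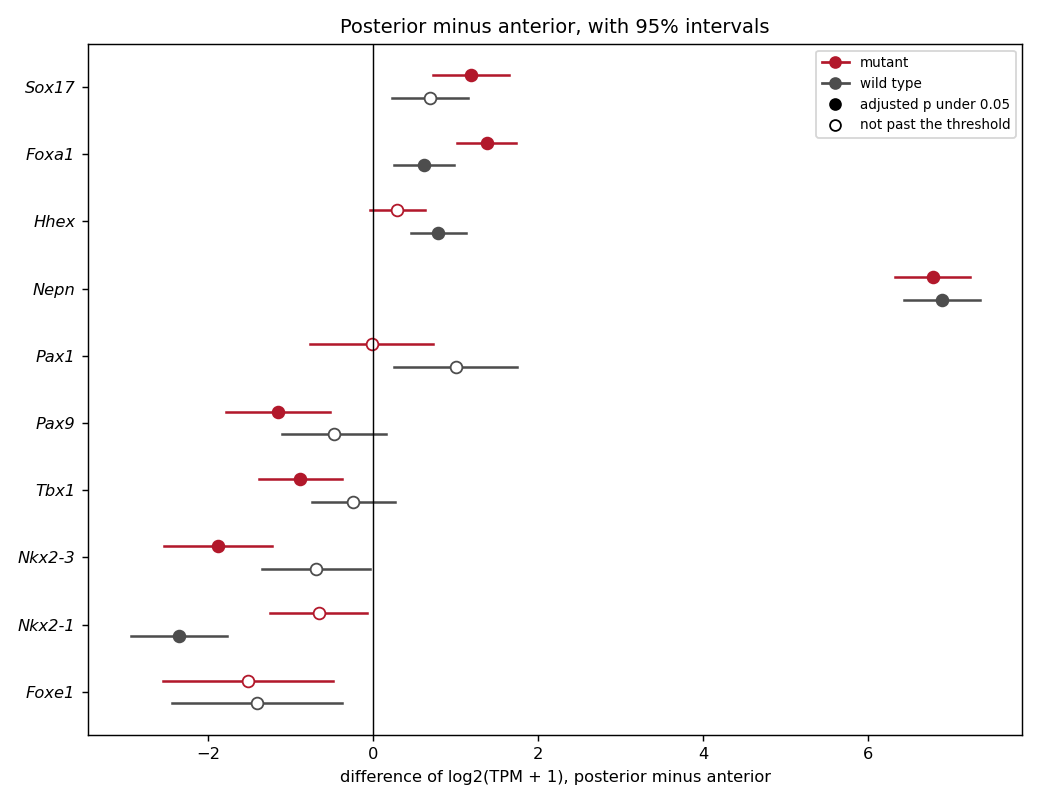
Difference of log2(TPM + 1), posterior minus anterior, for the 10 genes (horizontal axis) in the mutant (upper, red) and the wild type (lower, grey), with 95% intervals from limma; filled points passed an adjusted p of 0.05. Nepn lies near 7 in both genotypes, Nkx2-1 is lowest in the wild type (-2.36), and Nkx2-3 is lowest in the mutant (-1.89).

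Nkx2-1, Pax9 and Foxa1 lie within about 1 Mb of each other on chromosome 12, together with Nkx2-9, a further homeobox gene of the same class that is made in ventral neural tube and pharyngeal endoderm. Nkx2-9 (56611389 to 56613284, minus strand) had 15.4 and 6.83 TPM in mutant anterior libraries, against 83.2 and 70.1 TPM in wild-type anterior libraries, a difference of -2.77 ± 0.31 (adjusted p = 0.00064) that was lost under 0 of 20 alternatives. Its start lies 76.4 kb from that of Nkx2-1. Pax9, 154.9 kb away, did not pass (0.29 ± 0.28), and Foxa1, 1010.0 kb away, was lower (-0.82 ± 0.16). Between them Slc25a21, which encodes a mitochondrial carrier of oxodicarboxylates, moved the other way, with 5.51 and 4.0 TPM in mutant anterior libraries, against 0.810 and 1.11 TPM in wild-type anterior libraries (1.55 ± 0.24, adjusted p = 0.0028). It also rose in posterior pieces (0.99 ± 0.24, adjusted p = 0.031), a call lost under 9 of 19 alternatives. Slc25a21 and Pax9 share 189 bases on opposite strands, and the libraries do not mark strand, so reads there cannot be told apart. The genes of this block thus moved in both directions in the anterior pieces.

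**Figure D4:**
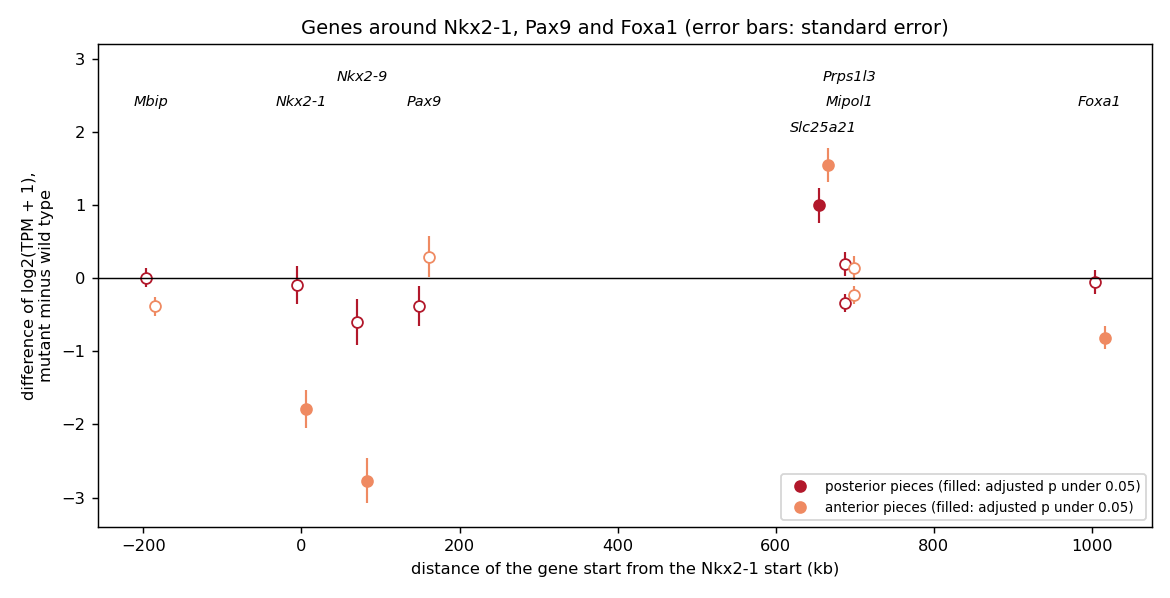
Difference of log2(TPM + 1), mutant minus wild type (vertical axis, bars are standard errors), of 8 genes of the block against the distance of their start from that of Nkx2-1 in kb (horizontal axis), in posterior (dark red) and anterior (orange) pieces, with filled points past an adjusted p of 0.05 and the regions offset slightly sideways. Nkx2-1 and Nkx2-9 lie lowest in anterior pieces at -1.79 and -2.77, while Slc25a21 lies at 1.55 and Pax9 near 0.

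Among protein-coding genes within 500 kb of other members, Cyp26a1 next to Hhex, which encodes an enzyme that breaks down retinoic acid, had 63.2 and 86.7 TPM in mutant anterior libraries, against 22.0 and 20.4 TPM in wild-type anterior libraries (1.76 ± 0.15, adjusted p = 0.00019). In posterior pieces it had 54.1 and 58.8 TPM in the mutant, against 88.3 and 79.8 TPM in the wild type (-0.57 ± 0.15, adjusted p = 0.041). That posterior call was lost under 9 of 20 alternatives and the anterior one under 0. Hhex passed in neither region. Next to Pax1, Nkx2-2, a homeobox factor of ventral neural tube, had 0.490 and 0.624 TPM in mutant anterior libraries, against 3.08 and 2.98 TPM in wild-type anterior libraries (-1.37 ± 0.19, adjusted p = 0.002). Next to Tbx1, the endothelial tight junction gene Cldn5 rose in both regions (1.25 ± 0.15 in posterior and 0.88 ± 0.15 in anterior pieces), and Dgcr8, a partner of Drosha in miRNA processing, fell (-0.55 ± 0.13 and -1.04 ± 0.13), with the posterior Dgcr8 call lost under 8 of 20 alternatives. Of 19 tested neighbours of Tbx1, 2 rose and 1 fell in posterior pieces, where Tbx1 was called lower, and 1 rose and 6 fell in anterior pieces. Next to Nepn, Slc35f1 rose (1.11 ± 0.14 and 1.36 ± 0.14) and the muscle cofactor gene Vgll2 fell (-1.89 ± 0.38 and -1.58 ± 0.38), both in both regions. The Vgll2 calls were lost under 4 (posterior) and 5 (anterior) of 20 alternatives.

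Other regulators of the gut tube, in a list chosen with earlier results known, moved more often between regions than between genotypes. Of 15 such factors, all tested, 4 rose and 1 fell in mutant posterior pieces, and 3 rose and 2 fell in mutant anterior pieces, with list medians of 0.01 and 0.12, beside 0.05 and 0.02 over all genes. In posterior pieces Hnf4a, a nuclear receptor of liver and visceral endoderm, had 2.92 and 11.1 TPM in the mutant, against 26.2 and 25.2 TPM in the wild type (-1.95 ± 0.50, adjusted p = 0.041). That call was lost under 11 of 20 alternatives. Sox2 (0.38 ± 0.09), Onecut1 (0.88 ± 0.21) and Gata6 (0.87 ± 0.22) rose there, each lost under 9 or 10 alternatives, as did Isl1, lost under 14 of 20. In anterior pieces Onecut1, a factor of liver and pancreas, rose by 1.48 ± 0.21 (adjusted p = 0.0022) and Cdx2 by 0.61 ± 0.17 (adjusted p = 0.033), while Mnx1 fell (-0.87 ± 0.16, adjusted p = 0.006), as did Foxa2. The Cdx2 call was lost under 10 of 20 alternatives, that of Isl1, the third gene that rose, under 7, and those of Onecut1 and Mnx1 under 1 each. Posterior pieces were higher for 10 of 15 in the mutant and 9 of 15 in the wild type, with medians of 1.65 and 1.77, beside -0.04 and -0.10 over all genes. Cdx2, which specifies the hindgut, led with 5.87 ± 0.17 in mutant and 7.01 ± 0.17 in wild-type embryos. Whether the levels of these 15 genes came from gut endoderm or from neural tissue, mesoderm and other parts of the pieces was not tested.

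Visceral endoderm, the yolk sac layer that also makes Hnf4a, varied widely between libraries. Its 9 markers summed to 236 and 1134 TPM in mutant posterior libraries 159 and 163, and to 2549 and 2125 TPM in wild-type posterior libraries. In anterior pieces the sums were 18.1 to 26.3 TPM in the mutant and 24.2 to 155 TPM in the wild type, with library 153 the high one, and Apoa4 was at 0 in 1 library. In posterior pieces 2 of 9 fell, Trf and Apoa4. Of the members, Sox17, Foxa1, Nkx2-3, Nepn, Nkx2-1 and Foxe1 were higher in mutant posterior library 163 than in 159, and the other 4 were lower. The part of visceral endoderm in the levels of the members and of Hnf4a was not tested.

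Of 15 genes listed as epithelial and secreted products of endoderm, 2 fell and 0 rose in mutant posterior pieces. In mutant anterior pieces 1 rose and 3 fell. Cer1, a secreted antagonist of Nodal, Bmp and Wnt ligands, had 1.84 and 1.38 TPM in mutant posterior libraries, against 13.9 and 14.6 TPM in wild-type posterior libraries (-2.55 ± 0.17, adjusted p = 0.00012). Sfrp5, a secreted Wnt antagonist of the foregut, had 31.9 and 39.7 TPM in mutant posterior libraries, against 84.5 and 93.1 TPM in wild-type posterior libraries (-1.29 ± 0.16, adjusted p = 0.0021). In anterior pieces it had 1.16 and 1.18 TPM in the mutant, against 10.9 and 7.96 TPM in the wild type (-2.25 ± 0.16, adjusted p = 0.0001). These calls of Cer1 and Sfrp5 were lost under 0 of 20 alternatives. Trh, a peptide hormone precursor, had 46.9 and 24.5 TPM in mutant anterior libraries, against 115 and 119 TPM in wild-type anterior libraries (-1.75 ± 0.25, adjusted p = 0.002). Epcam, an adhesion protein of all epithelia, rose there (0.81 ± 0.17, adjusted p = 0.011), and Shh fell (-0.47 ± 0.14, adjusted p = 0.036). The Trh call was lost under 1, the Epcam call under 4 and the Shh call under 8 of 20 alternatives. Each piece mixes endoderm with mesoderm and other tissues, and the share of endoderm in the levels of Cer1 and the other listed genes was not tested. The summed level of 5 epithelial genes was 1170 to 1605 TPM in mutant posterior and 1468 to 1482 TPM in wild-type posterior libraries, and 783 to 950 TPM in mutant anterior and 850 to 933 TPM in wild-type anterior libraries.

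**Figure D5:**
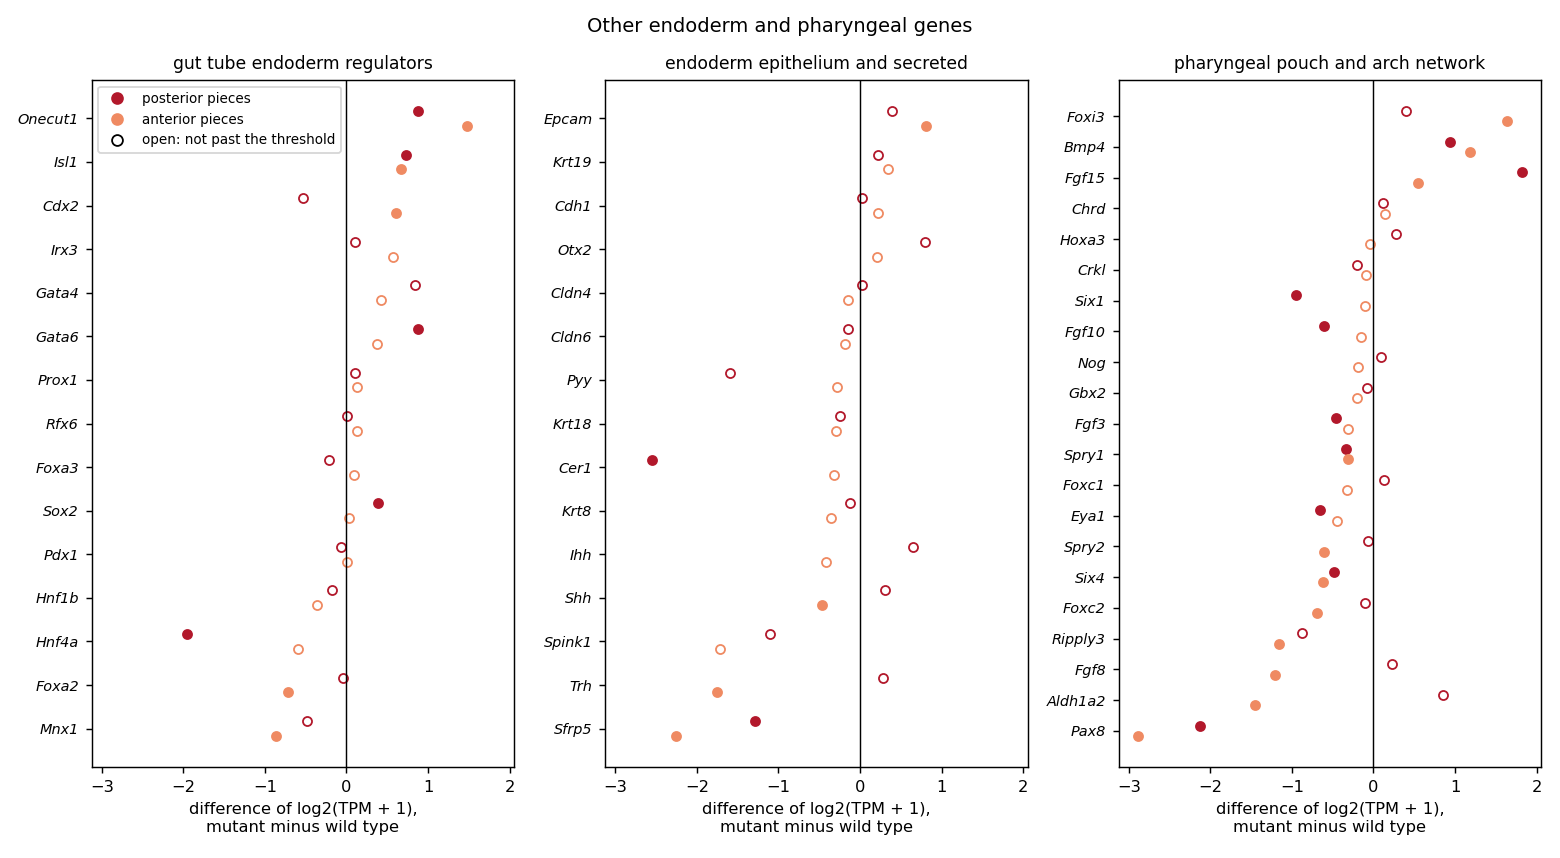
Difference of log2(TPM + 1), mutant minus wild type (horizontal axis), of genes of 3 lists of endodermal and pharyngeal genes in posterior (dark red) and anterior (orange) pieces, ordered by the anterior difference, with filled points past an adjusted p of 0.05. Of the 15 gut tube regulators, 10 are open in each region, while Sfrp5 (-1.29 and -2.25) and Pax8 (-2.13 and -2.89) are lower in both regions and Cer1 (-2.55) in posterior pieces.

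The network of pouch and arch genes held more calls. Of 23 listed genes 22 were tested, since Gcm2 of the parathyroid was at most 0.0215 TPM. In mutant posterior pieces 3 rose and 7 fell, and in anterior pieces 3 rose and 8 fell, with medians of -0.07 and -0.26, beside 0.05 and 0.02 over all genes. Pax8, which joins Nkx2-1, Foxe1 and Hhex in the thyroid bud and also marks the otic vesicle, had 0.461 and 0.340 TPM in mutant posterior libraries, against 5.90 and 4.40 TPM in wild-type posterior libraries (-2.13 ± 0.18, adjusted p = 0.00042). In anterior pieces it had 0.564 and 0.684 TPM in the mutant, against 11.8 and 10.3 TPM in the wild type (-2.89 ± 0.18, adjusted p = 5.1e-05). Of 5 tested otic vesicle markers, 4 fell in posterior and 3 in anterior pieces, Pax8 included in both counts, and Oc90 was at 0 in 5 libraries. The parts of the otic vesicle, of the thyroid bud and of other tissues, neural tissue included, in the Pax8 levels of either region were not tested.

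Ligands listed in this network moved in both directions. Bmp4 had 119 and 119 TPM in mutant posterior libraries, against 59.3 and 63.6 TPM in wild-type posterior libraries (0.94 ± 0.10, adjusted p = 0.0012), and it rose in anterior pieces as well (1.18 ± 0.10, adjusted p = 0.00024). Fgf15 had 83.1 and 108 TPM in mutant posterior libraries, against 27.2 and 25.2 TPM in wild-type posterior libraries (1.82 ± 0.13, adjusted p = 0.0002). Fgf8 had 20.6 and 31.0 TPM in mutant anterior libraries, against 55.4 and 64.6 TPM in wild-type anterior libraries (-1.21 ± 0.18, adjusted p = 0.0023). Spry2, an inhibitor of Fgf signalling, fell in anterior pieces (-0.61 ± 0.10, adjusted p = 0.0031). Each piece also holds neural tissue, and how much of these levels came from the arches was not tested. Of 10 tested paralogues of the Nkx2 and Pax members, 0 rose and 2 fell in posterior pieces, and 1 rose and 6 fell in anterior pieces. The falls included Pax2 (-1.98 ± 0.18 in posterior and -1.84 ± 0.18 in anterior pieces) and, in anterior pieces, Pax5 (-2.43 ± 0.15), while Pax3 rose in anterior pieces (1.03 ± 0.11). These paralogues are mainly genes of neural tube, neural crest and otic vesicle at this stage.

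The genes whose levels ran most like those of a member over the 8 libraries were found by Pearson's r of log2(TPM + 1), given as a description, since libraries share group, region and scaling. Nepn ran with Foxf1 (r = 1.00), a forkhead gene of gut mesoderm, and with Hoxd8 and Hoxd4 (0.998 each), all of them posterior genes. Nkx2-1 ran with Sppl2b (0.976), En2 (0.973) and Flrt1 (0.971), of which En2 marks the boundary of midbrain and hindbrain. Sox17 ran with Acaa2 (0.989), an enzyme of mitochondrial fatty acid breakdown, and Hhex with Garnl3 (0.976) and Ass1 (0.966). Foxa1 ran with Mafk (0.98), Tbx1 with Plcxd2 (0.968) and Nkx2-3 with Foxi2 (0.957). Pax9 and Foxe1 shared Nuak1 among their 3 nearest (0.938 and 0.943).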

How the data were processed

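RNA was measured by polyA-selected, unstranded sequencing of 8 libraries in 4 groups of 2. Values are TPM, computed by the authors per gene and deposited as 1 table with Ensembl identifiers. Base calling used CASAVA 1.8.2 and alignment used STAR to mm10, per the submitters' processing notes, while the labels name neither the STAR version nor the tool that computed TPM. Each deposited TPM column sums to 1000000, so a change in a few abundant genes shifts all others.

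Names, coordinates and exon lengths came from GENCODE M21, which matched 55240 of 55421 identifiers. TPM times exon length gave whole reads within 0.01 for 98.8% to 98.89% of values, and those reads served for depth, counting intervals and 1 alternative. Replicates correlated at 0.984 to 0.992 across genes on the log2 scale. R 4.3.3 with limma 3.58.1 fitted log2(TPM + 1) of genes with at least 1 TPM in at least 2 libraries, with 4 group means, a trend of spread on mean and 4 residual degrees of freedom, and the threshold was a Benjamini-Hochberg adjusted p of 0.05, two-sided, over 16699 genes. The pseudocount makes fold changes of low genes too small. The 5 comparisons were genotype in each region, the difference of these, and region in each genotype. The steps were tested on simulated data. The fold differences in TPM are ratios of group means. Python 3.11.15 with pandas 2.3.3, scipy 1.17.1 and matplotlib 3.10.9 did the rest.

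The members and all gene lists were chosen with earlier results of these data known. Named were all members, up to 4 called genes per list and comparison with the smallest adjusted p, called protein-coding neighbours within 500 kb, and up to 3 genes most like a member among those with a mean of at least 2 TPM. Other genes were named after their values were seen. Some genes that met the rule are not reported here by name. Counts and medians of lists are descriptions, with no test. The 20 alternatives covered each library left out, both libraries numbered 153 or 159 left out, pseudocounts, filters, scalings, library weights, contrast libraries alone, a replicate block, and limma voom on recovered reads.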

Additional observations from a re-analysis of the deposited data

Results flagged for a closer look

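None of the 10 endoderm genes is among the results below. In each of these genes the genotype effect differed between the regions by limma's test of the difference itself (anterior effect minus posterior effect, log2 scale, Benjamini-Hochberg adjusted over all genes tested). Each group held 2 libraries.

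Among genes listed as products of endoderm, Cer1 differed by 2.24 ± 0.24 (adjusted p = 0.0058), with effects of -2.55 in posterior and -0.31 in anterior pieces. The call was lost under 5 of the 19 alternatives that give this difference. Trh differed by -2.04 ± 0.35 (adjusted p = 0.038), lost under 11. Cyp26a1, which lies next to Hhex, differed by 2.32 ± 0.21 (adjusted p = 0.0033), and that call was lost only without both libraries numbered 153 (adjusted p = 0.17). Its posterior effect of -0.57 was lost under 9 of 20 alternatives.

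In the pouch and arch network, Aldh1a2, which makes retinoic acid, differed by -2.31 ± 0.34 (adjusted p = 0.021). It had 525 and 467 TPM in mutant posterior libraries, against 266 and 282 TPM in wild-type posterior libraries, and 17.6 and 9.01 TPM in mutant anterior libraries, against 34.2 and 38.8 TPM in wild-type anterior libraries. The call was lost under 7 alternatives. Fgf8 differed by -1.43 ± 0.25 (adjusted p = 0.039, lost under 11) and Fgf15 by -1.27 ± 0.19 (adjusted p = 0.022, lost under 8).

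Among genes of neural tissue, Pax5 differed by -2.15 ± 0.22 (adjusted p = 0.0047, lost under 2), with 6.68 and 5.76 TPM in mutant anterior libraries, against 34.4 and 41.4 TPM in wild-type anterior libraries. Dbx1 differed by 1.35 ± 0.20 (adjusted p = 0.024, lost under 7).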

How the results depend on the processing

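With 2 libraries a group, the calls lean on single libraries. In posterior pieces 3 members were called between genotypes, against 0 with no filter on low values, 1 with library weights, 0 without both libraries numbered 153 and 0 to 3 with 1 library left out. In anterior pieces 2 were called, against 1 without both libraries numbered 153, 4 without both numbered 159 and 1 to 3 with 1 left out. Between regions of the wild type 4 were called, against 2 without both numbered 153, 7 without both numbered 159, 7 with the contrast's libraries alone and 2 to 6 with 1 left out. In the mutant the 6 calls became 4 to 7. The difference of genotype effects gave 0 under every alternative run. Leaving out both libraries numbered 153 gave the fewest calls over all genes in every comparison, for example 180 against 1919 in posterior pieces. Leaving out a library leaves 1 in its group, which is assumed to vary like the others. The cause of these shifts was not tested.

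No called difference changed sign. Uncalled ones did. Pax1 between regions of the mutant was 0.0082 with median-of-ratios scaling and 0.066 with voom, and -0.59 to 0.55 with 1 library left out. With quantile normalization Nkx2-3 in anterior pieces was -0.023 and the Nepn difference of effects was -0.027. Without both libraries numbered 153, Foxe1 in anterior pieces was 0.38, and Pax9 and Tbx1 between wild-type regions were 0.13 each. Without both numbered 159, Foxe1 in anterior pieces was 0.42, Foxa1 in posterior pieces 0.17, Nkx2-1 there 0.075 and the Nepn difference of effects -0.24. With 1 library left out, Foxe1 ran from -0.59 to 0.42 in anterior pieces, -0.76 to 0.37 in posterior pieces and -0.46 to 0.67 for the difference. Nkx2-3 (-0.25 to 0.47) and Pax9 (-0.085 to 0.67) in anterior pieces, Foxa1 (-0.27 to 0.17), Nkx2-1 (-0.42 to 0.23) and Nepn (-0.077 to 0.58) in posterior pieces, the Nepn difference (-0.21 to 0.45) and Tbx1 between wild-type regions (-0.49 to 0.00092) also crossed 0.

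Deviations from group means correlated between the regions of a number at 0.136 for mutant and 0.022 for wild-type libraries, so these correlations do not show that the numbers pair the pieces. In the mutant, sex-linked transcripts matched by number. Both pieces numbered 159 carried Xist (25.3 and 30.9 TPM), and both numbered 163 carried Ddx3y (31.0 and 39.4 TPM). All wild-type libraries carried Ddx3y, so sex does not separate their numbers. With the replicate block the counts of called members were 2 in anterior and 3 in posterior pieces between genotypes, 0 for the difference, and 4 and 4 between regions of mutant and wild type. Pax9 (adjusted p = 0.051) and Tbx1 (0.054) in the mutant and Foxa1 (0.058) in the wild type missed the threshold, and Sox17 (0.041) passed in the wild type. Depth limits Nkx2-1 in posterior pieces and Nepn in anterior pieces, which rest on few reads.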

Other observations

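Genes listed as epithelial and secreted products of endoderm, outside the 10 members, also divided the pieces by region. Ihh, a hedgehog ligand of gut epithelium, had 18.9 and 34.3 TPM in mutant posterior libraries, against 0.198 and 0.294 TPM in mutant anterior libraries, and 14.5 and 17.4 TPM in wild-type posterior libraries, against 1.12 and 0.308 TPM in wild-type anterior libraries. The limma differences were 4.41 ± 0.30 in the mutant (adjusted p = 2.1e-05) and 3.34 ± 0.30 in the wild type (adjusted p = 0.00013). The keratin gene Krt19 was higher in posterior pieces by 1.46 ± 0.18 in mutant and 1.57 ± 0.18 in wild-type embryos. Otx2, a factor of anterior endoderm and forebrain, was lower there, at -5.09 ± 0.30 in mutant and -5.68 ± 0.30 in wild-type embryos. Whether endoderm or other tissues, forebrain included, gave these levels was not tested. Foxi3, a factor of pharyngeal ectoderm, had 42.2 and 59.1 TPM in mutant anterior libraries, against 18.0 and 13.2 TPM in wild-type anterior libraries.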
